A study of Homo sapiens with 24 samples.

Results

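The genes described here encode the machinery that cuts nascent RNA at its 3′ end: 20 genes of pre-mRNA cleavage and polyadenylation and 13 subunits of the Integrator complex. The 33 genes were chosen by name for their known roles, by a rule that uses no measured value, and were found by Ensembl identifier in a count table of 63299 genes. Whole transcriptome sequencing covered 8 groups of 3 libraries, 24 in all. A2780 is a human ovarian cancer cell line that is platinum-sensitive, and A2780cis is its isogenic platinum-resistant partner, which received 1 µM cisplatin in the medium for a passage at intervals to keep its resistance. Cells of each line were left untreated, in standard medium, or were treated with 1 µM 5-FdU-ECyd, a conjugate of the antimetabolites 5-FdU and ECyd, for 6 h or 12 h. Each resistance status is represented by 1 cell line. The study calls the 3 libraries of a group biological replicates. How the cultures were kept apart is not described in the sources used here, and p-values measure the spread between these libraries.

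Most protein-coding transcripts are cut downstream of a poly(A) signal and receive a poly(A) tail. The cleavage and polyadenylation specificity factor (CPSF) reads the AAUAAA signal and holds the nuclease, the cleavage stimulation factor (CstF) reads U-rich or GU-rich sequence downstream, the cleavage factors CFIm and CFIIm bind upstream sites and RNA polymerase II, and poly(A) polymerase adds the tail. The amounts of several of these factors are known to influence which of a gene's poly(A) sites is used. Integrator carries a nuclease of the same family and a phosphatase module, cuts the 3′ ends of U snRNAs and terminates short transcripts near promoters.

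Promoter sequence was taken from RefSeq (GRCh38.p14), which had an entry for 28 of the 33 genes. CPSF1, INTS5, INTS8, INTS9 and INTS10 had none. The 250 bases before the start site of 4 genes are shown because their transcripts moved in opposite directions after treatment: CLP1 and CSTF2T rose and INTS13 and INTS3 fell at 12 h in both lines. The windows are CLP1 at chr11:57657512-57657761 (+ strand), CSTF2T at chr10:51699596-51699845 (- strand), INTS13 at chr12:26937982-26938231 (- strand) and INTS3 at chr1:153727800-153728049 (+ strand). In GENCODE 44 the windows of CLP1 and INTS13 lie inside the gene, downstream of a more distal annotated start, and those of CSTF2T and INTS3 lie directly upstream of it. Each is written 5′ to 3′ on the gene's strand, and capitals mark letters searched on both strands: CCGGAAG, which ETS factors bind, GGGCGG, which SP1 binds, the CCAAT box and the TATA box TATAAA.
CLP1: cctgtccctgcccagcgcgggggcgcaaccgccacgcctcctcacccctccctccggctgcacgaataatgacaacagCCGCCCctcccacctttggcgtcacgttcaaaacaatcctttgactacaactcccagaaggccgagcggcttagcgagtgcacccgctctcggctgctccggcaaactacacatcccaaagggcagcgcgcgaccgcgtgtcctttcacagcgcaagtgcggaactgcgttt
CSTF2T: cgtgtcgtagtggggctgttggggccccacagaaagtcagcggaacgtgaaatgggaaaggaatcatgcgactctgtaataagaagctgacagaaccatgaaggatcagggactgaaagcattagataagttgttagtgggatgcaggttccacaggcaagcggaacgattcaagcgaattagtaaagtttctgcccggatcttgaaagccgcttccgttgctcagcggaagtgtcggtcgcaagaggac
INTS13: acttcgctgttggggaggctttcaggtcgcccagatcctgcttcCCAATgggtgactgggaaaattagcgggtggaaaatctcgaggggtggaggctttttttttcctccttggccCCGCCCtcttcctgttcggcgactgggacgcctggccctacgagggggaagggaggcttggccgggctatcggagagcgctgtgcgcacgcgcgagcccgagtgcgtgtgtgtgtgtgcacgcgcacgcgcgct
INTS3: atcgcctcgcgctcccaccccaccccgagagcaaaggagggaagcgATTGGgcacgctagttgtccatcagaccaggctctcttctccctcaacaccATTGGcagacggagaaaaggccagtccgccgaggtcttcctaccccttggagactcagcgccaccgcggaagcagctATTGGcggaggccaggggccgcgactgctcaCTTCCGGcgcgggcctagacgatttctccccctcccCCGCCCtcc

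The 28 genes with an entry had 33 promoters in the table, of which 23 (69.7%) held GGGCGG, against 42.6% of 35116 promoters of all genes. The CCAAT box was found in 14 of the 33 (42.4%, against 32.0%) and CCGGAAG in 8 (24.2%, against 8.52%). TATAAA was found in 0 of the 33 and in 10.7% of all promoters. INTS13 carried GGGCGG and CCAAT once each, and INTS3 had 1 GGGCGG, 3 copies of the CCAAT box and 1 CCGGAAG. Whether motifs differ between genes that rose and genes that fell was not tested. CPSF4, which rose in both lines at 12 h, held GGGCGG and CCAAT. INTS4, which fell in both, held neither of these but did hold CCGGAAG. The other genes with CCGGAAG were CPSF3, CPSF7, CSTF2, CSTF3, INTS1, INTS3 and NUDT21. CLP1 held a single GGGCGG on the opposite strand, and none of the 4 motifs was in the CSTF2T window. These are matches of letters and not measured binding.

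Between 11077368 and 21901406 reads per library were counted, and the 33 genes had between 103 and 9358.5 counts in a library, so all 33 passed the filter on low counts and were among the 20240 genes tested. Levels are given as TMM-normalized CPM, a gene's count scaled to a common library total. For marker genes, CPM of unnormalized counts are given. The epithelial keratins KRT8 and KRT18 were detected in every library, at 0.522 to 6.92 and 0.696 to 29.2 CPM. EPCAM, also epithelial, was detected in every library at 0.0691 to 2.20 CPM. The ovarian carcinoma markers PAX8, WT1, MUC16 and the cadherin CDH1 were at 0 in 17 to 22 of 24 libraries. Of 7 markers of other cells, PTPRC, CD3E, PECAM1 and VWF were at 0 in 19 to 23 libraries. CD68, COL1A1 and DCN were detected in every library, at 2.16 to 8.14, 0.0903 to 18.9 and 0.414 to 11.9 CPM. Their medians (4.67, 3.42 and 3.66 CPM) were above that of KRT8 (2.82) and below that of KRT18 (11.2). The libraries differed in the relation between GC content and a gene's log2 level relative to its mean over all 24 libraries. Spearman's rho across protein-coding genes was from -0.621 to 0.502. Of the 24 libraries, 8 stood apart in counts on 16 listed U snRNA genes, with 18.2 to 55.3 CPM (of unnormalized counts) against 1.52 to 5.52 CPM in the other 16. Those 8 were treated A2780cis replicates 1 and 2 at 6 h, untreated A2780 replicates 2 and 3 and treated A2780 replicate 1 at 12 h, and all 3 treated A2780cis replicates at 12 h. In A2780cis at 12 h these counts and the treatment cannot be told apart.

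After 12 h of treatment most of the genes were lower than in untreated cells, in both lines, and a few rose. In A2780, 18 of the 33 were lower and 4 higher at an adjusted p-value of at most 0.05 (edgeR's quasi-likelihood test, adjusted over all genes), against 26.1% of all tested genes lower and 28.6% higher. In A2780cis, 25 were lower and 5 higher, against 28.9% and 31% of all genes. The median log2 fold change (log2 FC, treated against untreated) of the 33 was -0.28 in A2780 and -0.42 in A2780cis, where the median of all tested genes was 0.02 and 0.04. All 18 genes lower in A2780 were among the 25 lower in A2780cis, and CPSF4, CSTF2T and CLP1 were higher in both lines. In bulk RNA, fewer cells with a transcript and less of it in each cell cannot be told apart, and CPM give the share of a transcript in a library, not its amount per cell. Without strand information the counting could assign reads of an overlapping gene, and the 22 genes with at most 5% of their exonic bases shared with another gene gave 15 lower and 2 higher in A2780 and 19 lower and 1 higher in A2780cis.

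**Figure D1:**
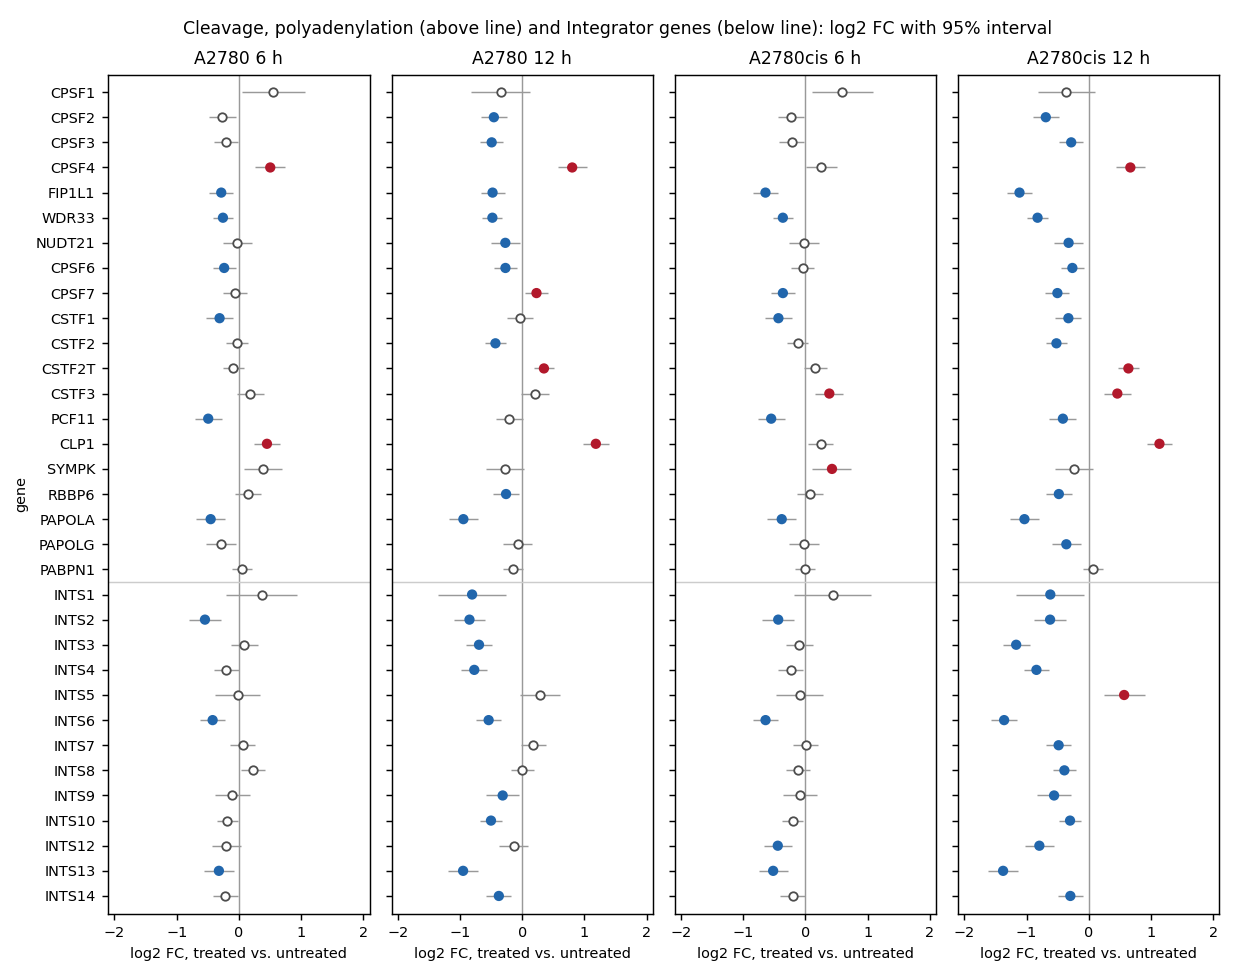
log2 FC of the 33 genes (rows) with 95% intervals in 4 comparisons of treated against untreated cells (panels), with n = 3 libraries per group. Filled blue points are lower and filled red points higher at an adjusted p-value of at most 0.05, open points did not pass. At 12 h 18 points are blue in A2780 and 25 in A2780cis.

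Within CPSF, 4 of 6 genes were lower in each line at 12 h and CPSF4 was higher. FIP1L1, which tethers poly(A) polymerase to the complex, was at 67.9, 74.1 and 70.9 CPM in untreated A2780 cells and at 54.6, 51.5 and 47.0 CPM in treated ones at 12 h (log2 FC = -0.48, SE 0.09, adjusted p-value = 0.000122). In A2780cis it was at 59.5, 67.6 and 60.3 CPM and at 29.8, 27.3 and 29.6 CPM after treatment (log2 FC = -1.11, SE 0.10, adjusted p-value = 3.24e-10). In neither line did treated and untreated libraries overlap. WDR33, which contacts the poly(A) signal, was at 117, 116 and 114 CPM in untreated and 83.9, 86.4 and 78.5 CPM in treated A2780 cells (log2 FC = -0.48, SE 0.08, adjusted p-value = 1.03e-05). In A2780cis the untreated libraries of WDR33 held 93.2, 99.0 and 97.8 CPM and the treated ones 55.1, 56.3 and 52.5 CPM (log2 FC = -0.82, SE 0.08, adjusted p-value = 1.94e-09), again without overlap. The exons of WDR33 share 25.7% of their bases with SFT2D3 on the opposite strand, which was higher in treated A2780cis (log2 FC = 0.81), and those of FIP1L1 share 14.6% with LNX1 on the opposite strand, which was lower in both lines (log2 FC = -0.56 and -1.07).

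CPSF4, the zinc finger subunit that reads the same signal, went the other way. Its level was 47.9, 50.3 and 51.7 CPM in untreated and 78.0, 92.9 and 90.4 CPM in treated A2780 cells (log2 FC = 0.80, SE 0.11, adjusted p-value = 1.48e-06). Untreated A2780cis cells had 36.7, 38.4 and 39.4 CPM and treated ones 52.5, 61.6 and 68.0 CPM (log2 FC = 0.67, SE 0.11, adjusted p-value = 1.83e-05). All treated libraries of CPSF4 were above all untreated ones of the same line. CPSF4 shares 7.9% of its exonic bases with genes on the opposite strand, whose part in the counts was not tested. The nuclease CPSF3 fell, with a log2 FC of -0.49 (SE 0.09) in A2780 and -0.28 (SE 0.10) in A2780cis, where the call was lost without treated replicate 2 (log2 FC = -0.19). CPSF2, its partner without catalytic activity, fell by 0.46 and 0.69 on the log2 scale. CPSF1, the scaffold of the signal-reading module, did not pass in either line (-0.34 and -0.36, adjusted p-values 0.217 and 0.173, 95% intervals -0.82 to 0.13 and -0.82 to 0.10), but it was called in A2780cis without treated replicate 2 (log2 FC = -0.61).

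Of the 3 CFIm genes, NUDT21 and CPSF6 were lower in both lines and CPSF7 in A2780cis alone. NUDT21, the subunit that binds UGUA upstream of poly(A) sites, was at 293, 288 and 246 CPM in untreated and 257, 210.2 and 219 CPM in treated A2780 cells at 12 h (log2 FC = -0.27, SE 0.12, adjusted p-value = 0.0487). In A2780cis it was at 239, 212 and 187 and 198, 177 and 134 CPM (log2 FC = -0.32, SE 0.12, adjusted p-value = 0.0182). Treated and untreated libraries of NUDT21 overlapped in both lines. Each call was lost without single libraries: in A2780 (log2 FC from -0.25 to -0.22) without replicate 1 or 2 of the untreated or replicate 2 or 3 of the treated cells, and in A2780cis without untreated replicate 1 (-0.24) or treated replicate 3 (-0.21). CPSF6, which partners NUDT21, had 170.2, 169 and 156 CPM in untreated and 149, 132 and 129.8 CPM in treated A2780 cells (log2 FC = -0.27, SE 0.09, adjusted p-value = 0.0128). The A2780cis levels of CPSF6 were 122, 119.6 and 119 CPM without and 113, 104 and 83.9 CPM with treatment (log2 FC = -0.26, SE 0.09, adjusted p-value = 0.0139). Its libraries did not overlap in either line, but the call in A2780 was lost without treated replicate 2 or 3 (-0.24 in each case) and that in A2780cis without treated replicate 3 (-0.18).

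CPSF7, the alternative partner of NUDT21, was the only gene of the 33 called in opposite directions in the lines at 12 h. In A2780 its level was 103, 113 and 129 CPM in untreated and 129.8, 142 and 133 CPM in treated cells (log2 FC = 0.23, SE 0.09, adjusted p-value = 0.0388). In A2780cis untreated cells had 117, 132 and 129 CPM and treated cells 83.3, 95.8 and 87.6 CPM (log2 FC = -0.50, SE 0.09, adjusted p-value = 4.97e-05). The groups did not overlap in either line, though in A2780 the highest untreated and the lowest treated library were close together. The increase in A2780 was no longer called without untreated replicate 1 (log2 FC = 0.14) or 2 (0.21), or without any 1 of the 3 treated replicates (0.19 to 0.24). The ratio of CPSF7 to CPSF6 CPM in A2780 was 0.701 ± 0.113 (SD, n = 3) without and 0.990 ± 0.107 with treatment. In A2780cis the ratio was 1.05 ± 0.0777 in untreated and 0.901 ± 0.154 in treated cells, with overlapping libraries.

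Among the CstF genes the paralogs CSTF2 and CSTF2T moved apart. CSTF2, the RNA-binding subunit whose amount is a textbook determinant of poly(A) site choice, was at 48.8, 46.8 and 45.9 CPM in untreated and 34.9, 33.7 and 36.4 CPM in treated A2780 cells (log2 FC = -0.43, SE 0.08, adjusted p-value = 9.32e-05). In A2780cis it was at 55.7, 52.7 and 53.4 CPM and 39.0, 35.1 and 38.9 CPM (log2 FC = -0.52, SE 0.08, adjusted p-value = 6.42e-06). CSTF2T, an intronless copy with the same role, whose library values are given after they were seen, had 53.1, 51.9 and 51.0 CPM in untreated and 70.6, 66.0 and 62.3 CPM in treated A2780 cells (log2 FC = 0.35, SE 0.08, adjusted p-value = 0.000713). The corresponding A2780cis values of CSTF2T were 22.6, 21.3 and 21.2 and 30.9, 35.4 and 35.0 CPM (log2 FC = 0.64, SE 0.08, adjusted p-value = 4.52e-07). No treated library overlapped an untreated one for either gene in either line. The ratio of CSTF2T to CSTF2 CPM was 1.10 ± 0.0139 (SD, n = 3) in untreated and 1.90 ± 0.164 in treated A2780 cells, and 0.402 ± 0.00566 and 0.901 ± 0.108 in A2780cis. Transcripts of the 2 genes share 0 identical stretches of 75 bases, the full read length. Trimmed reads and reads with mismatches were not examined, so reads shared by the pair were not tested beyond that. When the libraries with many snRNA counts were left out, which kept 1 untreated and 2 treated libraries, the log2 FC of CSTF2T in A2780 was 0.27 and no longer called. With a lone library in a group, the test takes its spread from the other groups and has less power, here and wherever these libraries are left out in A2780 at 12 h. CSTF1, a WD40 subunit, was called at 12 h in A2780cis only (log2 FC = -0.33), as was CSTF3, the scaffold of CstF, which was higher (log2 FC = 0.46), and the line difference itself was not called for either (adjusted p-values 0.14 and 0.242). CSTF3 shares 8.69% of its exonic bases with TCP11L1 and 5.83% with LINC00294, both on the opposite strand. At 12 h the log2 FC of TCP11L1 was 0.39 in A2780 and 0.46 in A2780cis, and that of LINC00294 0.40 and 0.20. At 6 h in A2780cis they were 0.28 and -0.17. Their part in the counts of CSTF3 was not tested.

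**Figure D2:**
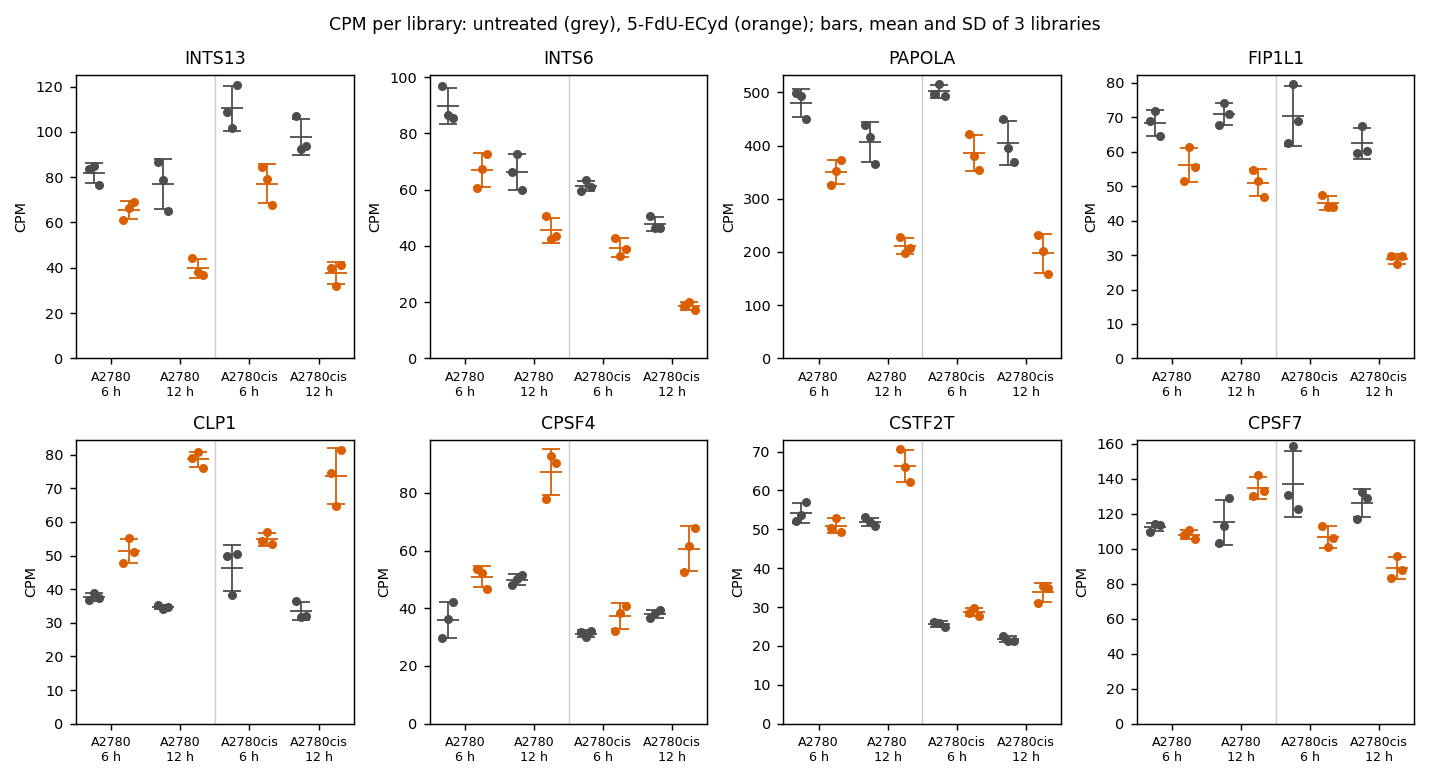
TMM-normalized CPM (vertical axis, from 0) of 8 genes in each library (points) of the 8 groups, with the mean and SD of 3 libraries, untreated in grey and treated in orange. At 12 h the orange points lie below the grey ones for INTS13, INTS6, PAPOLA and FIP1L1 in both lines, above them for CLP1, CPSF4 and CSTF2T, and on opposite sides in the lines for CPSF7.

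The 2 CFIIm genes also differed in direction. CLP1, an RNA kinase that also takes part in tRNA splicing, had the highest log2 FC of the 33 in both lines at 12 h. It was at 35.2, 34.0 and 34.6 CPM in untreated and 79.0, 80.7 and 76.1 CPM in treated A2780 cells (log2 FC = 1.18, SE 0.10, adjusted p-value = 3e-10), and at 36.6, 31.7 and 32.1 CPM and 74.7, 64.8 and 81.3 CPM in A2780cis (log2 FC = 1.14, SE 0.10, adjusted p-value = 4.36e-10). All treated libraries lay above all untreated ones, by a wide margin in both lines. YPEL4, with which CLP1 shares 11.9% of its exonic bases on the opposite strand, was at 11.4 CPM in untreated and 10.8 CPM in treated A2780 cells and at 1.80 and 4.90 CPM in A2780cis. PCF11, which binds the tail of RNA polymerase II and acts in termination, was at 93.3, 86.6 and 71.7 CPM in untreated and 78.9, 72.0 and 67.3 CPM in treated A2780 cells, which overlapped and did not pass (log2 FC = -0.21, SE 0.10, adjusted p-value = 0.097) unless untreated replicate 3 (log2 FC = -0.31) or treated replicate 1 (-0.28) was left out. In A2780cis the untreated libraries of PCF11 (83.6, 76.9 and 70.6 CPM) were all above the treated ones (54.7, 58.2 and 60.3 CPM), and the gene was lower (log2 FC = -0.42, SE 0.10, adjusted p-value = 0.00135). PCF11-AS1 on the opposite strand, which shares 15.2% of the exonic bases of PCF11, was higher in both lines (log2 FC = 0.82 and 1.88).

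PAPOLA, the main nuclear poly(A) polymerase, was lower in all 4 comparisons of treated with untreated cells. At 12 h it was at 439.5, 416 and 366 CPM in untreated and 229, 199 and 207 CPM in treated A2780 cells (log2 FC = -0.95, SE 0.11, adjusted p-value = 1.04e-07). In A2780cis the values were 451, 396 and 368 CPM and 232, 202 and 159 CPM (log2 FC = -1.03, SE 0.11, adjusted p-value = 1.84e-08), and in both lines the highest treated library was far below the lowest untreated one. Its paralog PAPOLG had a log2 FC of -0.07 in A2780, which did not pass, and of -0.36 in A2780cis, which did and was lost without untreated replicate 1 (-0.28). PAPOLG amounted to 0.0787 ± 0.00107 (SD, n = 3) of PAPOLA CPM in untreated and 0.145 ± 0.00857 in treated A2780 cells, and to 0.0677 ± 0.000632 and 0.108 ± 0.00506 in A2780cis. PABPN1, the nuclear poly(A)-binding protein, did not pass in any of the 4 comparisons. It was at 236, 238 and 248 CPM in untreated and 227, 211 and 213 CPM in treated A2780 cells (log2 FC = -0.15, 95% interval -0.31 to 0.01), and at 213, 215 and 223 CPM and 206, 222 and 256 CPM in A2780cis (log2 FC = 0.07, -0.09 to 0.23). Exons of PABPN1 share 39.3% of their bases with the readthrough gene BCL2L2-PABPN1 on the same strand, so the counts of the pair are uncertain. Of the remaining 2 end-processing genes, RBBP6, an activator of cleavage, fell by 0.26 and 0.48, the first call being lost without any of 4 single libraries (log2 FC from -0.28 to -0.20), and SYMPK, a scaffold shared with histone mRNA processing, did not pass (-0.28 and -0.24, adjusted p-values 0.111 and 0.166), except in A2780cis without untreated replicate 1 (log2 FC = -0.37).

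Of the 13 Integrator subunits, 9 were lower at 12 h and 0 higher in A2780 (69.2% lower, and 45% of the 20 end-processing genes), and 12 were lower and 1 higher in A2780cis (92.3% lower, and 65% of the end-processing genes), with median log2 FC of -0.50 and -0.62. The difference between these shares was not tested. In the count of 0, no subunit had an unadjusted p under 0.05 for an increase in A2780, and the DESeq2 Wald test called the same 4 genes higher as edgeR, none of them an Integrator subunit. INTS13, a subunit of the module with INTS10 and INTS14, fell the most in each line. It was at 86.7, 78.8 and 64.9 CPM in untreated and 44.5, 38.0 and 36.9 CPM in treated A2780 cells (log2 FC = -0.95, SE 0.12, adjusted p-value = 1.47e-07). In A2780cis it was at 107, 92.2 and 94.0 CPM and 40.1, 32.0 and 41.0 CPM (log2 FC = -1.38, SE 0.12, adjusted p-value = 2.08e-10), without overlap in either line. The other 2 subunits of that module fell less, INTS10 by 0.50 in A2780 and 0.30 in A2780cis and INTS14 by 0.38 and 0.30 on the log2 scale, and the INTS14 call in A2780cis was lost without untreated replicate 1 (log2 FC = -0.22) or treated replicate 2 (-0.19).

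INTS6, part of the phosphatase module, was at 66.3, 72.5 and 59.8 CPM in untreated and 50.7, 42.6 and 43.5 CPM in treated A2780 cells (log2 FC = -0.54, SE 0.10, adjusted p-value = 4.3e-05). In A2780cis it was at 50.5, 46.5 and 46.3 CPM and 18.7, 19.9 and 17.1 CPM (log2 FC = -1.36, SE 0.10, adjusted p-value = 2.57e-11). The treated libraries of A2780cis were the lowest of the 8 groups for this gene. INTS3, which is also a subunit of the SOSS complex that binds single-stranded DNA, had 154, 161 and 176 CPM in untreated and 95.6, 109 and 98.7 CPM in treated A2780 cells (log2 FC = -0.69, SE 0.11, adjusted p-value = 4.02e-06). Its A2780cis libraries held 161, 183 and 197 CPM without and 74.3, 87.5 and 78.8 CPM with treatment (log2 FC = -1.17, SE 0.11, adjusted p-value = 7.81e-10). Treated and untreated libraries of INTS6 and INTS3 did not overlap in either line.

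INTS4, which holds the cleavage module together, was at 49.0, 44.8 and 46.6 CPM in untreated and 28.2, 27.9 and 26.2 CPM in treated A2780 cells (log2 FC = -0.77, SE 0.10, adjusted p-value = 3.86e-07). In A2780cis it was at 53.5, 46.5 and 45.8 and 30.2, 23.8 and 27.4 CPM (log2 FC = -0.84, SE 0.10, adjusted p-value = 7.68e-08), and INTS4 showed no overlap in either line. INTS2, a subunit of the core, was at 56.5, 51.9 and 51.1 CPM and 35.0, 26.5 and 27.4 CPM in A2780 (log2 FC = -0.85, SE 0.12, adjusted p-value = 2.38e-06). In A2780cis INTS2 was at 54.1, 49.5 and 44.9 CPM and 33.03, 36.8 and 26.7 CPM (log2 FC = -0.62, SE 0.12, adjusted p-value = 0.000114), also without overlap. INTS9, a partner of the Integrator nuclease, fell by 0.31 in A2780 and 0.56 in A2780cis. The call of INTS9 in A2780 was lost without any of 5 single libraries (log2 FC from -0.34 to -0.28) and when the libraries with many snRNA counts were left out (-0.29). INTS1, the largest subunit and scaffold, fell by 0.81 and 0.62, with the largest standard errors of the 33 (0.26 and 0.27). Its call in A2780 was lost without treated replicate 1 (log2 FC = -0.59) or without the libraries with many snRNA counts (-0.49), and in A2780cis without replicate 2 or 3 of the untreated or 1 or 3 of the treated cells (-0.63 to -0.37).

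INTS5 was the only Integrator subunit that rose, in A2780cis only (log2 FC = 0.57, SE 0.16), and the line difference did not pass (adjusted p-value = 0.398). In A2780 its log2 FC was 0.29, and 0.41 and called without treated replicate 1. INTS5 shares 9.3% of its exonic bases with a protein-coding gene on the same strand, whose part in the counts was not tested. The 3 remaining subunits, INTS7, INTS8 and INTS12, were lower in A2780cis and not called in A2780. INTS7, a core subunit, was at 81.6, 77.2 and 72.4 CPM in untreated and 87.9, 85.4 and 88.1 CPM in treated A2780 cells (log2 FC = 0.18, SE 0.10, adjusted p-value = 0.123), and at 81.0, 78.4 and 76.5 CPM and 64.6, 52.1 and 52.1 CPM in A2780cis (log2 FC = -0.48, SE 0.10, adjusted p-value = 0.000132). The treated libraries were above the untreated ones in A2780 and below them in A2780cis. INTS12, a small subunit with a PHD finger, was at 37.7, 33.4 and 31.3 CPM and 33.6, 29.2 and 30.6 CPM in A2780, which overlapped (log2 FC = -0.13, SE 0.11, adjusted p-value = 0.326). In A2780cis INTS12 was at 49.8, 45.1 and 43.0 CPM and 28.6, 22.1 and 28.9 CPM, without overlap (log2 FC = -0.79, SE 0.11, adjusted p-value = 1.32e-06). INTS8, of the phosphatase module, was at 94.7, 95.4 and 87.3 CPM and 102, 87.4 and 88.7 CPM in A2780, where the libraries overlapped (log2 FC = 0.00, SE 0.09, adjusted p-value = 0.973). For INTS8 in A2780cis they did not, with 178, 153 and 146 CPM untreated and 134, 114 and 115 CPM treated (log2 FC = -0.39, SE 0.09, adjusted p-value = 0.000744). CCNE2, on the opposite strand over 20.7% of the exonic bases of INTS8, was higher after treatment in both lines (log2 FC = 1.94 in A2780 and 0.75 in A2780cis), and GSTCD and ARHGEF38, which share 8.50% and 13.2% of those of INTS12, had a log2 FC of -0.83 and -0.50 in A2780cis.

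Whether the response differed between the lines was tested as an interaction, which used the same libraries as the log2 FC of each line. At 12 h the log2 FC was lower in A2780cis for 8 genes and higher for 0, against 14% and 9.7% of all genes. The 8 were CPSF7, FIP1L1 and WDR33 among the end-processing genes and INTS3, INTS6, INTS7, INTS8 and INTS12 of Integrator. The largest difference was that of INTS6 (log2 FC of A2780cis minus that of A2780 = -0.82, SE 0.14, adjusted p-value = 0.000178), followed by CPSF7 (-0.73, SE 0.13, adjusted p-value = 0.000299). INTS7 and INTS12 both differed by -0.66 (adjusted p-values 0.00115 and 0.00407) and FIP1L1 by -0.64 (adjusted p-value = 0.00133). The differences of INTS3 (-0.47), INTS8 (-0.40) and WDR33 (-0.34) were smaller, with adjusted p-values of 0.0223, 0.0304 and 0.0252. These 3 calls were lost without single libraries of 12 h. That of INTS3 went without A2780 treated replicate 2 or A2780cis untreated replicate 3 (-0.40 in both cases). That of WDR33 went without A2780 treated replicate 1 (-0.31) or 2 (-0.30) or A2780cis untreated replicate 2 (-0.33) or 3 (-0.34). INTS8 lost the call without A2780 untreated replicate 3 (-0.36) or treated replicate 1 (-0.30), or A2780cis untreated replicate 1 (-0.31) or treated replicate 2 (-0.35) or 3 (-0.37). With a correction for GC content the difference was -0.40 for FIP1L1 and -0.18 for INTS8, and neither was called. For INTS13, whose log2 FC was also lower in A2780cis, the interaction did not pass (-0.43, adjusted p-value = 0.0579). At 6 h, 0 of the 33 interactions passed in edgeR and 0 in the DESeq2 Wald test, against 2.38% of all genes lower and 0.692% higher in A2780cis, and 4 of the 33 had an unadjusted p under 0.05.

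**Figure D3:**
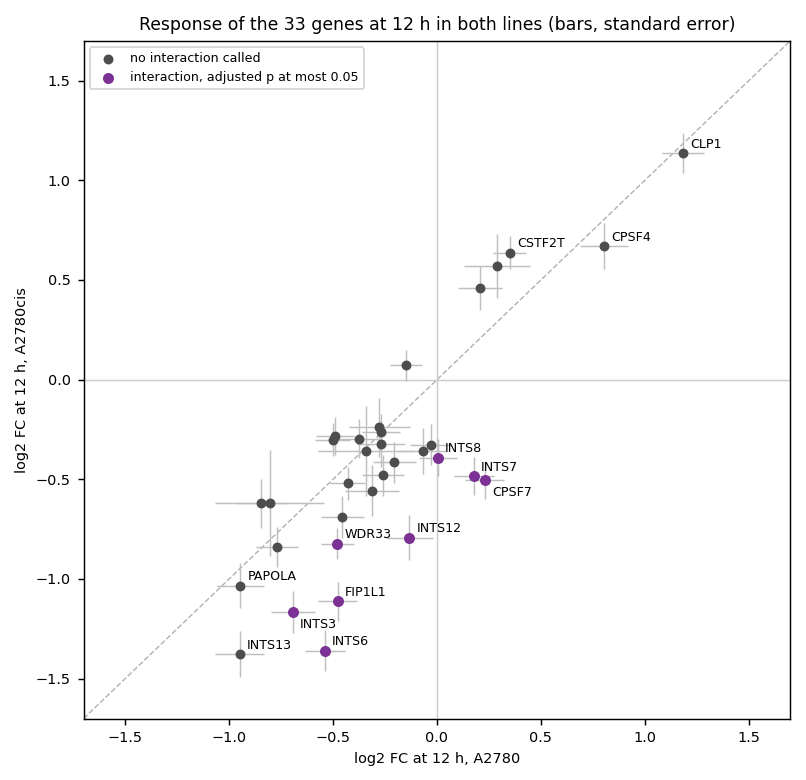
log2 FC at 12 h in A2780 (horizontal axis) and A2780cis (vertical axis) of the 33 genes, with standard errors as bars and the line of equal response dashed. The 8 purple points, whose interaction passed, all lie below that line, and CLP1 lies close to it at the upper right.

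After 6 h the response was smaller. In A2780, 9 genes were lower and 2 (CPSF4 and CLP1) higher, against 13.4% and 16% of all genes, and in A2780cis 10 were lower and 2 (CSTF3 and SYMPK) higher, against 16.3% and 14.4%. FIP1L1, WDR33, PAPOLA, PCF11, CSTF1, INTS2, INTS6 and INTS13 were lower in both lines at 6 h, and all of these but PCF11 and CSTF1 were also lower in both lines at 12 h. PAPOLA went from 499, 493 and 449.7 CPM in untreated to 327, 352 and 373 CPM in treated A2780 cells at 6 h (log2 FC = -0.45, SE 0.11, adjusted p-value = 0.00337), and from 497, 516 and 493 to 422, 381 and 354 CPM in A2780cis (log2 FC = -0.38, SE 0.11, adjusted p-value = 0.011). The call in A2780cis was lost without treated replicate 3 (log2 FC = -0.33). PCF11 had its lowest log2 FC at this time: -0.49 in A2780 (106, 95.8 and 100.0 CPM in untreated and 62.3, 74.5 and 77.5 CPM in treated cells) and -0.55 in A2780cis (79.3, 90.3 and 92.6 CPM and 66.2, 57.1 and 56.0 CPM). Untreated and treated libraries of PAPOLA and PCF11 did not overlap in either line. CLP1 was at 36.7, 38.9 and 37.3 CPM in untreated and 47.8, 55.2 and 51.2 CPM in treated A2780 cells at 6 h (log2 FC = 0.45, SE 0.10, adjusted p-value = 0.00173), and its log2 FC of 0.24 in A2780cis did not pass (adjusted p-value = 0.0707). In A2780 the 6 h calls rested on few libraries: 4 instead of 9 genes were lower without untreated replicate 2 or treated replicate 1, and 5 without untreated replicate 1, while 4 instead of 2 were higher without untreated replicate 3. In A2780cis 4 instead of 2 genes were higher without treated replicate 1 and 1 without untreated replicate 1 or 2 or treated replicate 2 or 3. CSTF3 was lost without untreated replicate 2 (log2 FC = 0.29), and SYMPK without untreated replicate 1 or 3 or treated replicate 2 or 3 (0.33 to 0.45). In the 3 untreated A2780 libraries of 6 h the correlation of GC content with levels relative to the mean of all libraries was from -0.621 to -0.372. In the treated ones it was from -0.366 to 0.139. With the GC correction the calls of FIP1L1, INTS13, CPSF6, INTS6 and CSTF1 in A2780 were lost (log2 FC from -0.20 to -0.03).

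The change of the response from 6 h to 12 h was tested within each line. In A2780 it was lower at 12 h for 8 genes and higher for 2, against 13% and 10.7% of all genes, and in A2780cis it was lower for 13 and higher for 3, against 13.6% and 10.3%. INTS3 had not passed at 6 h in either line (0.08 and -0.10), and its response differed between the times by -0.78 in A2780 (adjusted p-value = 0.000576) and -1.07 in A2780cis (adjusted p-value = 2.16e-05). INTS4, INTS13, PAPOLA, RBBP6, SYMPK and CSTF2 also had a lower response at 12 h in both lines, from -0.86 for INTS13 in A2780cis to -0.40 for CSTF2. For SYMPK the untreated mean moved more than the treated one. From 6 h to 12 h it went from 61.0 to 101 CPM in untreated and from 79.5 to 83.4 CPM in treated A2780 cells. In A2780cis it went from 51.2 to 89.5 CPM and from 68.6 to 75.8 CPM. In the other direction, the log2 FC of CLP1 was higher at 12 h by 0.73 and 0.89 and that of CSTF2T by 0.44 and 0.48 in A2780 and A2780cis. With the GC correction 21 instead of 10 genes passed in A2780, where 5845 of all 20240 tested genes passed with it.

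Without treatment the lines differed in 19 of the 33 genes, 9 higher and 10 lower in A2780cis than in A2780 (means of both times), against 31.1% and 30.2% of all genes. The nuclease CPSF3 was lowest relative to A2780 (log2 FC = -1.43, SE 0.07, adjusted p-value = 2.66e-16), at 107 ± 6.25 CPM (mean ± SD, n = 3) in A2780 and 38.1 ± 2.99 CPM in A2780cis at 12 h. CSTF2T followed (log2 FC = -1.17, SE 0.06, adjusted p-value = 2.15e-15), with 52.0 ± 1.05 and 21.7 ± 0.806 CPM at 12 h. CSTF3 (-0.78), INTS1 (-0.74) and INTS6 (-0.51) were also lower in A2780cis. Of the genes higher in A2780cis, CPSF1 had the largest difference (0.90, SE 0.17), followed by INTS8 (0.87, SE 0.07) and INTS12 (0.56, SE 0.08). INTS8 was at 104 ± 2.41 and 92.4 ± 4.51 CPM in untreated A2780 at 6 h and 12 h and at 204 ± 7.85 and 159 ± 16.9 CPM in A2780cis. The opposite-strand gene CCNE2 was at 103 and 66.2 CPM in untreated A2780cis and at 46.6 and 24.4 CPM in A2780 at the same times, and its part in the counts of INTS8 was not tested.

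Levels per kilobase of annotated exon, averaged over the 4 untreated groups, ranged from 2.60 CPM per kb for INTS6 to 60.8 for PABPN1. NUDT21 (46.1), PAPOLA and INTS13 (30.0) followed PABPN1, and INTS1 (3.50), PAPOLG (3.81) and INTS4 (4.10) were next to INTS6 at the lower end. Neighbours in this order were mostly close: CPSF3 (20.4), CPSF7 (20.3) and CPSF6 (19.8) overlapped in their group means, which for CPSF3 ran from 10.3 to 30.4 CPM per kb. PAPOLA was thus well above PAPOLG, and CSTF2 (19.2) above CSTF2T (9.35), on the scale per kilobase. The authors counted reads over the exons of an earlier annotation release than the one that gave these exon lengths. How far the order depends on that difference, including the last place of INTS6, was not tested. The level of PABPN1 is uncertain as well, since 39.3% of its exonic bases are shared with a readthrough gene.

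Untreated cells also differed between the times, although they received the same medium. In A2780, 5 genes were higher and 4 lower at 12 h than at 6 h, against 16.6% and 10.3% of all genes, and in A2780cis 4 were higher and 17 lower, against 18% and 21.9%. INTS1, CPSF1 and SYMPK were higher in both lines and CSTF3, INTS6, INTS7 and INTS10 lower in both. INTS1 was at 15.7, 24.7 and 31.6 CPM at 6 h and 48.9, 52.6 and 54.3 CPM at 12 h in A2780 (log2 FC = 1.12, SE 0.27), and at 13.8, 10.3 and 9.49 CPM and 27.5, 39.6 and 53.0 CPM in A2780cis (log2 FC = 1.84, SE 0.29). The 12 h libraries were above the 6 h libraries in both lines. CPSF1 was at 16.2, 28.7 and 36.8 CPM and 54.3, 54.0 and 56.8 CPM in A2780 and at 46.2, 42.2 and 39.1 CPM and 90.3, 123 and 152 CPM in A2780cis (log2 FC = 1.03 and 1.52), likewise without overlap. INTS1 and CPSF1 had the 2 highest GC contents of the 33 in their longest transcript, 65.2% and 62.3%, and across the 33 genes Spearman's rho between GC content and the log2 FC over time was 0.71 in A2780 and 0.62 in A2780cis. Across the 13881 tested protein-coding genes it was 0.74 in both lines, and all these genes share the same libraries. With the GC correction 4 instead of 9 genes passed in A2780 and 7 instead of 21 in A2780cis. Of all 20240 tested genes, 2247 and 2745 passed with it. Without the libraries with many snRNA counts, which left 1 untreated A2780 library of 12 h whose spread was taken from the other groups, 0 genes passed in A2780 in edgeR (6 at an unadjusted p under 0.05), a count that says little about those libraries. Without untreated A2780 replicate 1 of 6 h 4 passed, and without untreated A2780cis replicate 3 of 12 h 13 passed. These untreated libraries are also the controls of the treated cells.

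**Figure D4:**
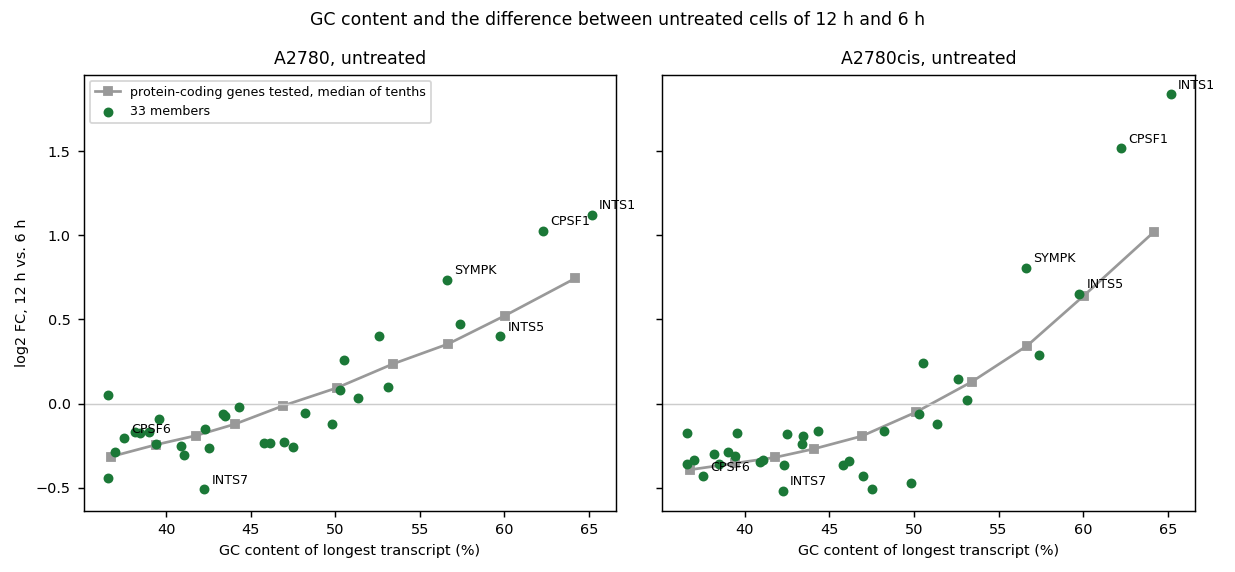
log2 FC of 12 h against 6 h in untreated cells (vertical axis) by the GC content of the longest transcript in percent (horizontal axis), for the 33 genes (green points) and as medians of equal-sized bins of the protein-coding genes tested (grey line). INTS1 and CPSF1 lie at the upper right in both lines, and the grey line rises with GC content as well.

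In structure the 33 genes resembled other genes in span but had more exons: the median genomic length was 35.2 kb, against 33.1 kb for tested protein-coding genes, and the median number of separate exonic blocks 19 against 11. Longer members had a lower log2 FC at 12 h, with Spearman's rho of -0.40 in A2780 and -0.61 in A2780cis across the 33, and of -0.23 and -0.38 across the 13881 protein-coding genes. With the number of exonic blocks, rho was -0.56 and -0.49 across the 33 and -0.22 and -0.34 across protein-coding genes. The genes share their libraries, so these are descriptions. The shortest members, CSTF2T (4.11 kb in 1 exon), PABPN1 (4.71 kb) and INTS5 (6.46 kb), were among the 6 that were not below 0 at 12 h in A2780cis, with CLP1 (13.7 kb), CPSF4 (18.5 kb) and, as an exception in length, CSTF3 (85.2 kb). INTS12, the longest at 213 kb, had a log2 FC of -0.79 in A2780cis, and INTS13, with the lowest log2 FC, spans 33.1 kb. GC content was less related to the response of the 33 at 12 h, with rho of 0.16 and 0.27, than at 6 h, with 0.60 and 0.46. Across protein-coding genes rho was likewise lower at 12 h (0.11 and 0.16) than at 6 h (0.53 and 0.36).

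**Figure D5:**
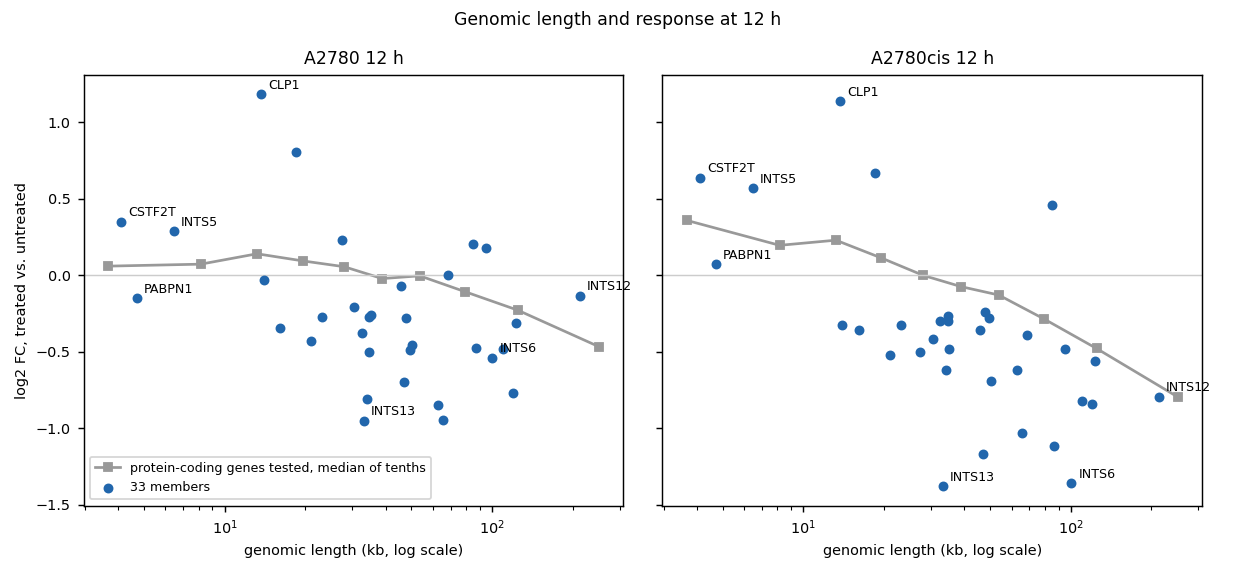
log2 FC at 12 h (vertical axis) by genomic length in kb (horizontal axis, log scale) for the 33 genes (blue points) and as medians of equal-sized bins of the protein-coding genes tested (grey line). CSTF2T, INTS5 and CLP1 lie at the upper left in both lines, and INTS6 at the lower right.

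Genes that work with these complexes were counted from 6 further lists, to be read against the 26.1% of all genes lower and 28.6% higher in A2780 at 12 h and the 28.9% and 31% in A2780cis. As a rule, genes named from a list were those with the smallest p-values in A2780cis at 12 h, so they do not stand for their list. Of 20 genes of termination and RNA polymerase II dephosphorylation, 14 were lower and 2 higher in A2780 at 12 h (median log2 FC -0.49) and 16 lower and 1 higher in A2780cis (-0.90). SSU72, a phosphatase that associates with CPSF, fell by 1.56 and 1.43 on the log2 scale, and the protein phosphatase subunit gene PPP1CC by 1.07 and 1.57. Of 16 other poly(A) genes, 11 were lower and 2 higher in A2780 and 14 lower and 2 higher in A2780cis. The splicing factor SRSF3, also a regulator of poly(A) site use, fell by 1.41 and 1.91, the cytoplasmic poly(A)-binding protein gene PABPC4 by 1.05 and 1.08, and ELAVL1, which binds U-rich RNA, by 0.58 and 1.39. Of 9 further Integrator and SOSS genes, 4 were lower and 4 higher in A2780, both above the shares of all genes. In A2780cis 3 were lower and 2 higher, near or below those shares. PPP2CA, the catalytic subunit of the phosphatase that Integrator recruits, fell by 0.46 and 0.70, whereas INIP, a SOSS partner of INTS3, rose by 0.38 and 0.51. NABP1, also a SOSS partner, had a log2 FC of 1.11 and 2.08, from 0.502 and 0.598 CPM only in untreated cells. At this level NABP1 could pass the filter on low counts through the treated libraries. Its rise, also where counted above, is therefore no result.

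Of 10 histone 3′ end genes, 1 was lower and 0 higher in A2780 (edgeR) and 7 lower and 0 higher in A2780cis. The interaction at 12 h was lower in A2780cis for 5 and higher for 0, against 14% and 9.7% of all genes. The cap-binding protein gene NCBP1 fell by 0.89 and 0.85 in the 2 lines, while SLBP, which binds the histone stem-loop, and ZNF473, of the U7 snRNP, had a log2 FC of -0.69 and -0.53 in A2780cis, where they passed, and of -0.17 and -0.14 in A2780, where they did not. Of the 3 U1 snRNP protein genes, SNRPA fell by 0.96 and 0.74, SNRPC rose in A2780cis by 0.42, and SNRNP70 did not pass. Of 16 listed snRNA genes, whose transcripts Integrator cuts, 8 had enough counts to be tested, of which 1 was higher in A2780 and 8 in A2780cis. Most of these genes had few counts outside the 8 libraries with many snRNA counts and could pass the filter through those libraries, which include all 3 treated A2780cis libraries of 12 h, so the count of 8 was largely fixed by the filter and is no result. RNU7-1, the histone-processing snRNA gene, was the 1 called in A2780 (log2 FC = 1.51, and 1.12 in A2780cis). The summed snRNA counts were 1.79 to 29.7 CPM in untreated and 3.97 to 33.8 CPM in treated A2780 cells at 12 h, and 1.65 to 2.85 and 24.5 to 36.2 CPM in A2780cis. They followed single libraries in the other groups, the RNU1 copies are nearly identical and share reads, and the part of library differences in the values of A2780cis was not tested.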

How the data were processed

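Total RNA of 24 samples was sequenced, in 8 groups of 3 by cell line, treatment and time as the labels give them. The authors deposited 1 table of estimated counts per gene: reads were converted with bcl2fastq, trimmed with Trimmomatic, aligned to GRCh38.p7 with STAR 2.5.2b and counted over exons with featureCounts, reads at several genes or sites being assigned to each or as fractions, so that counts need not be whole. No strand setting for the counting is given in the sources used here, although the library kit keeps strand, and the labels state single reads where the methods state paired-end reads.

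The counts were rounded and genes with few counts removed (edgeR filterByExpr, minimum count 10 and total 15), which left 20240 of 63299 genes, of which 20262 had no count. All 24 libraries were fitted together by group with TMM factors in edgeR 4.0.16 (R 4.3.3, quasi-likelihood test, two-sided, 16 residual degrees of freedom), and p-values were adjusted over all tested genes by Benjamini-Hochberg with a threshold of 0.05. The SE of a log2 FC was its size divided by the square root of F. Between 11077368 and 21901406 reads per library set the precision. Levels are TMM-normalized CPM. Annotation was GENCODE 44 (56948 genes matched by identifier), summaries were made with pandas 2.3.3 and figures with matplotlib 3.10.9 in Python 3.11.15. The steps were checked on simulated data. No pair of replicates was near identical.

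The genes and lists were chosen with earlier results of these data known. Values in every library are given for genes with 1 of the 6 smallest adjusted p-values in either line at 12 h, for genes with a called interaction at 12 h, and for CSTF2, CPSF6, NUDT21, PCF11 and PABPN1. Alternatives were DESeq2 1.42.0 (its size factors, its Wald test), library size alone, no filter, unrounded counts, a replicate block, compared samples alone, removal of lncRNA and rRNA genes and each library left out. A GC offset in 20 bins and the removal of libraries with over 10 CPM on snRNA genes were added after the data were seen. Same-numbered treated and untreated replicates had correlated deviations from -0.25 to 0.31, so replicate numbers were not taken to pair samples. Protein sequences were not used here.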

Additional observations from a re-analysis of the deposited data

Results flagged for a closer look

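The response to treatment at 12 h differed between the lines, by the interaction test, for 8 of the 33 genes, each with a lower log2 FC in A2780cis than in A2780. Of all tested genes 14% had a lower and 9.7% a higher response in A2780cis. Across protein-coding genes the difference between the lines fell with genomic length (Spearman's rho -0.27), and the part of length was not tested. As the difference of A2780cis minus A2780 on the log2 scale, INTS6 was at -0.82, CPSF7 at -0.73, INTS7 at -0.66, INTS12 at -0.66, FIP1L1 at -0.64, INTS3 at -0.47, INTS8 at -0.40 and WDR33 at -0.34. Calls of 4 of the 8 (CPSF7, INTS6, INTS7 and INTS12) held under every alternative run, and those of FIP1L1, INTS3, INTS8 and WDR33 did not. With the GC offset the difference was -0.40 for FIP1L1 and -0.18 for INTS8, and neither was called. CPSF7 was called higher in A2780 and lower in A2780cis, and the other 7 were lower in A2780cis. The summed snRNA counts were high in all 3 treated and in none of the untreated A2780cis libraries of 12 h, and their part in these differences was not tested. No group of 3 libraries was large enough to be tested for single libraries that lie far from the others.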

How the results depend on the processing

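Of 83 calls for single genes, the DESeq2 Wald test lost 1, the GC offset 12, compared samples alone 7, library size alone 13, no filter 7, removal of lncRNA and rRNA genes 3 and removal of the libraries with many snRNA counts 5 of the 34 it could test, and leaving out single libraries lost 71 of 546. Replicate numbers share no stated source: the replicate block changed 0 of the 83 calls and gave 4 genes higher in A2780 at 6 h, where 2 were found without it. Library size alone raised the median log2 FC of all genes to 0.24 in A2780 and 0.15 in A2780cis at 12 h. For genes higher in A2780 at 6 h (2), library size alone, no filter and the GC offset each gave 5, and leaving out single libraries 2 to 4. For those lower (9), size factors and the Wald test gave 14, no filter 5, and leaving out libraries 4 to 8. Library size alone gave 8 higher in A2780 at 12 h (4). In A2780cis at 6 h (2 higher) library size alone gave 5, no filter and removal of lncRNA and rRNA genes 4, and leaving out libraries 1 to 4. The GC offset gave 2 line differences at 6 h (0) and 21 time differences of the response in A2780 (10), against 1331 and 5845 of all 20240 tested genes. For time in untreated A2780 cells (9), size factors gave 14, the Wald test 15, the GC offset 4, removal of those libraries 0 (with 1 untreated library left at 12 h), and leaving out libraries 4 to 10. In untreated A2780cis cells (21), library size alone gave 12, no filter and compared samples alone 13, the GC offset 7, and leaving out libraries 13 to 22. The log2 FC of genes that were not called changed sign with library size alone in A2780 at 12 h for PAPOLG (0.15), INTS12 (0.088), PCF11 (0.016), PABPN1 (0.071) and CSTF1 (0.19). INTS8 there was at -0.019 with no filter, -0.11 without the libraries with many snRNA counts, and from -0.084 to 0.045 with single libraries left out, CSTF1 from -0.085 to 0.0105, and PABPN1 in A2780cis at -0.028 with the GC offset and from -0.047 to 0.11. The cause of these changes was not tested. The smallest count of any of the genes in a library was 103.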
